A study of Mus musculus with 6 samples.

Results

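The genes described here make, bind and clear retinoic acid, and they were followed in newborn mouse skin in which the transcription factor Nrf2 was kept active in keratinocytes. The set was Adh7 and 8 other genes of retinoid metabolism (Adh1, Aldh1a1, Aldh1a2, Aldh1a3, Rdh10, Dhrs9, Cyp26b1 and Crabp2). Every probe set whose annotation gave a member as its only gene symbol was kept. This gave 12 probe sets for 8 genes, out of 45037 probe sets tested. Dhrs9 had no probe set named in this way and was not analysed here. The set was proposed with results of the comparison below already known, in which Adh7 was among the most increased genes, so the differences of its members between the groups are given as descriptions without a test.

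Back skin was taken from female littermates at postnatal day 2.5 (mixed FVB/N and C57BL/6 background), and total RNA of each mouse was hybridised to 1 array. The first group, K5cre-caNrf2 (tg/tg), comprised 3 mice that combine a constitutively active Nrf2 (caNrf2) with K5cre, in which the promoter of keratin 5, a basal keratinocyte gene, drives Cre recombinase. The second group, K5cre-wt (tg/wt), comprised 3 control mice, read here as carrying the Cre transgene without caNrf2, so that Cre is shared by both groups. The sample descriptions also carry the word "weak" for both groups, which the labels do not explain. Array medians lay between 80.9 and 82.1 intensity units. Upper quartiles were 344.5 and 342.0 units on caNrf2 arrays 2 and 3 and lay between 330.7 and 333.3 on the other arrays. In whole skin the transcripts of keratinocytes are mixed with those of all other cells, and a change in the number of cells of a type cannot be told apart from a change in RNA per cell.

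Retinoic acid is made from vitamin A in a pair of oxidation steps. Retinol is oxidised to retinal by retinol dehydrogenases such as Rdh10 and by some alcohol dehydrogenases, and retinal is then oxidised irreversibly to retinoic acid by Aldh1a1, Aldh1a2 and Aldh1a3. Crabp2 carries retinoic acid to its nuclear receptors, and enzymes of the Cyp26 family degrade it. In skin, retinoic acid is known to influence keratinocyte differentiation, hair follicles and sebaceous glands.

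Promoter sequences from RefSeq (build GRCm38.p6, 250 bases before to 50 after the annotated start) were found for 6 of the 9 listed genes, as 7 promoters. Those of Adh7 (chr3:138217523-138217822, plus strand), of its chromosomal neighbour Adh1 (chr3:138277335-138277634, plus strand), of Cyp26b1 (chr6:84593761-84594060, minus strand) and of Aldh1a1 (the second of its starts, chr19:20601718-20602017, plus strand) are shown, to set Adh7 beside the gene next to it and beside 2 of the 3 members whose windows held a core match. Capitals mark matches on either strand to a core of the antioxidant response element, which Nrf2 binds with small Maf proteins (TGACNNNGC or TGAGNNNGC), or to the AP-1 site TGAGTCA. The AP-1 site was added after the Adh7 sequence had been seen.
Adh7: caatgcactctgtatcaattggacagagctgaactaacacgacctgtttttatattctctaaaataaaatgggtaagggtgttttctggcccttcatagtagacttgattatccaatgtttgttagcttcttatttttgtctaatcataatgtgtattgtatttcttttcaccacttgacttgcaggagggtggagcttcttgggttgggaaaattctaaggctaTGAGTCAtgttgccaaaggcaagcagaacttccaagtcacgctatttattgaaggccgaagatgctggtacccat
Adh1: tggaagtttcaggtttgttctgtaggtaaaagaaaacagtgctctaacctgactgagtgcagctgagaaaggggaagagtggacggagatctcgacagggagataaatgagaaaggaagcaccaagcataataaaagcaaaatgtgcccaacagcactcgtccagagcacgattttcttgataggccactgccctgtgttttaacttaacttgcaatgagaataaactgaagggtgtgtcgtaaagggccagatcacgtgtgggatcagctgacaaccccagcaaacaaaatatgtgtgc
Cyp26b1: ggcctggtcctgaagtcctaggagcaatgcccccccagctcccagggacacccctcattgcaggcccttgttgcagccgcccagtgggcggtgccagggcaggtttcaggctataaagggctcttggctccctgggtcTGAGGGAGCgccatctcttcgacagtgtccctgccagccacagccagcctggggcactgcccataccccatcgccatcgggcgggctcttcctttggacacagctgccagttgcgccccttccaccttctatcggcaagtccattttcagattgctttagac
Aldh1a1: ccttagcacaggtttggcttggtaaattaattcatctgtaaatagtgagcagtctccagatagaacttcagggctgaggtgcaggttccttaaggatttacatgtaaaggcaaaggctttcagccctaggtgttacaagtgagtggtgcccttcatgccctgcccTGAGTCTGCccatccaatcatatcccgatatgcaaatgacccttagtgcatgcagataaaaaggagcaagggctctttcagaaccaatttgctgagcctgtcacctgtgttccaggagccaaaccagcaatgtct
The Adh7 window held no match to either core and 1 match to the AP-1 site, starting 25 bases before the start. Among all 32851 promoters searched, 12.4% held TGACNNNGC, 17.6% held TGAGNNNGC and 5.20% held TGAGTCA. Matches to a core were found in Cyp26b1 (TGAGGGAGC), in the second Aldh1a1 promoter (TGAGTCTGC) and in Aldh1a2 (TGACCGTGC). The AP-1 letters were also found, on the opposite strand, in the Dhrs9 promoter and in the other Aldh1a1 promoter, and the Adh1 window held neither motif. A match describes letters, and the absence of one covers this window only.

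Adh7, a class IV alcohol dehydrogenase that oxidises retinol as well as other alcohols, was higher in caNrf2 skin on both of its probe sets. Probe set 1450110_at measured 159.5, 179.5 and 144.9 intensity units on the control arrays and 796.0, 863.4 and 816.4 on the caNrf2 arrays. The caNrf2 arrays lay far above the control arrays and close to each other. On the log2 scale the groups averaged 7.33 ± 0.15 and 9.69 ± 0.06 (mean ± SD, n = 3), a difference of 2.36 ± 0.09 (SE) or 5.13-fold (95% interval 4.47 to 5.90). Probe set 1421058_at was dimmer, with 50.51, 67.8 and 50.45 units in control and 569.6, 452.4 and 475.1 in caNrf2 skin. Here too the groups did not overlap, and control array 2 was the highest of the controls on both probe sets. The difference was 3.16 ± 0.13 on the log2 scale, or 8.92-fold (95% interval 7.34 to 10.8). The 2 probe sets thus gave the same direction and different folds, and their intervals did not overlap. When 16 intensity units were added before taking logarithms, the difference of the dimmer probe set was 2.84.

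How much Adh7 control skin expressed cannot be read from these levels. Probe sets of 3 Y-linked genes, which female skin does not express, lay between 2.62 and 3.95 (log2) over all arrays. Probe sets of the stomach genes Gkn1 and Gkn2, however, lay between 5.55 and 5.95 in control skin, a range that meets the 5.66 of Adh7 probe set 1421058_at on control arrays 1 and 3. What a probe set reads without its transcript differs between probe sets, so levels near these values have no clear floor. The brighter Adh7 probe set, 1450110_at, lay between 7.18 and 7.49 in control skin, above both ranges. It also lay above the other stomach and oesophagus markers measured, except Tff1. Tff1 read higher than this probe set on every control array, with 8.93 on control array 1. Whether skin expresses Tff1 was not tested, so these ranges set no floor for the brighter probe set either.

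**Figure D1:**
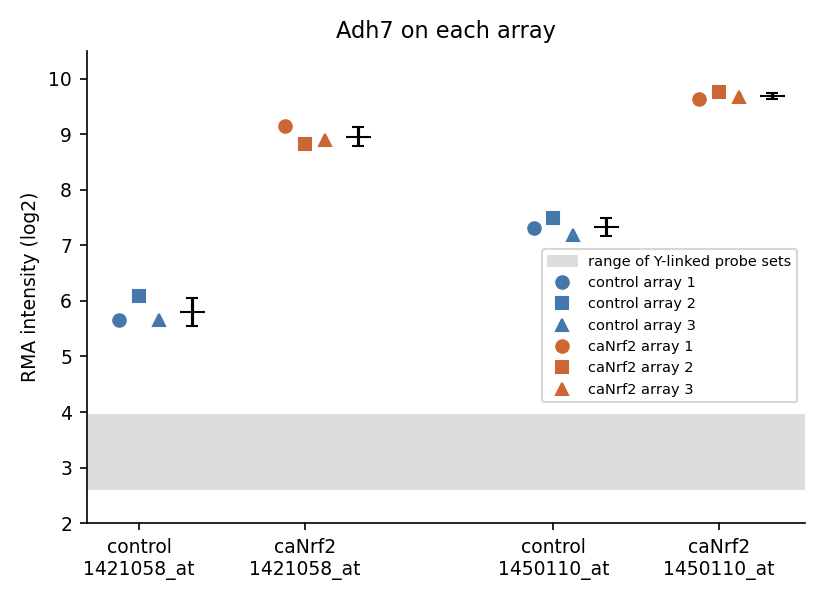
RMA intensity of Adh7 (log2, vertical axis) on each of the 6 arrays, for both probe sets. Points are arrays, black bars show the group mean ± SD (n = 3), and the grey band is the range of the Y-linked probe sets (2.62 to 3.95). All caNrf2 values lie above all control values on both probe sets.

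Adh1, the class I alcohol dehydrogenase that removes excess retinol and metabolises ethanol, was nearly equal on the control arrays and spread out on the caNrf2 arrays. It measured 1386, 1377 and 1434 intensity units in control and 1440, 1857 and 2093 in caNrf2 skin. The groups did not overlap, but caNrf2 array 1 exceeded the highest control array by only 6 units. The log2 difference was 0.34 ± 0.12 (SE; 95% interval 0.08 to 0.61), and without caNrf2 array 3 it was 0.23. The caNrf2 arrays had an SD of 0.28, against 0.03 in control skin.

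The genes nearest to Adh7 on chromosome 3 were examined because the mouse alcohol dehydrogenase genes form a cluster there. In the gene order of GRCm38.p6, the 5 measured genes that follow Adh7 belong to the cluster (Adh1, Adh6a, Adh6b, Adh6-ps1 and Adh4). The 5 measured genes before it (4930579F01Rik, Trmt10a, Mttp, Dapp1 and Lamtor3) do not. Of the 9 neighbours other than Adh1, none passed the threshold (limma, Benjamini-Hochberg adjusted p under 0.05 over all probe sets), which 0.24% of all probe sets did. An unadjusted p under 0.05 was found for 1 of the 9, Adh6b, and for 8.86% of all probe sets. On the brightest probe set of each, the log2 differences of the 10 neighbours ran from -0.12 for Mttp to 0.40 for Adh6b, with a median of 0.08.

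Adh6b, an alcohol dehydrogenase gene of the cluster, came closest. It measured 8.51, 8.41 and 8.47 (log2) in control and 8.93, 8.79 and 8.88 in caNrf2 skin. The groups did not overlap and differed by 0.40 ± 0.08 (SE; adjusted p = 0.0796, with 0.0265 to 0.415 over the alternatives tried). Adh6a differed by -0.04 ± 0.08 and Adh4, a dim class II enzyme, by 0.08 ± 0.13. Adh5, the class III enzyme that oxidises glutathione-bound formaldehyde, differed by 0.12 ± 0.08 (adjusted p = 0.686). Related alcohol dehydrogenases are similar in sequence, and whether their probes share transcripts was not tested.

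**Figure D2:**
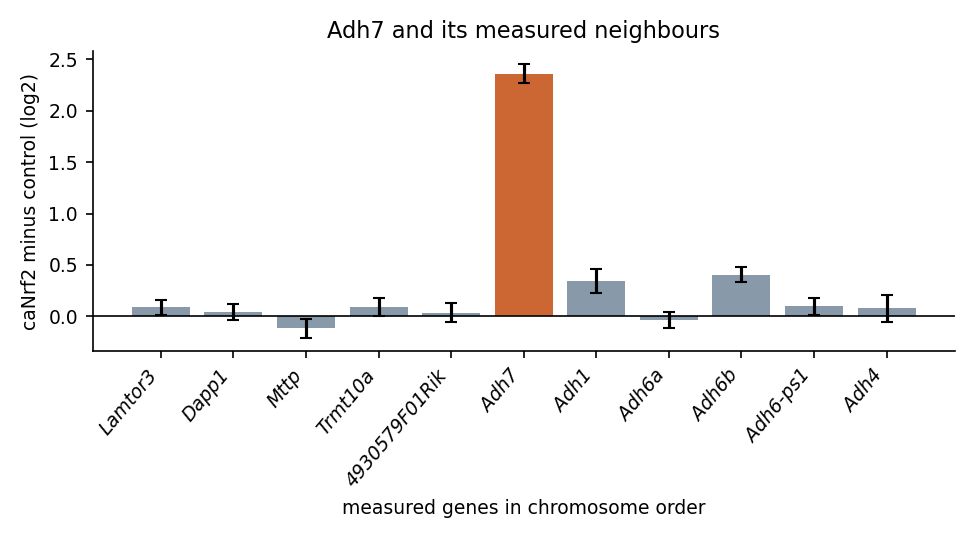
Difference between caNrf2 and control skin (log2, vertical axis, from 0) for Adh7 and the 5 measured genes on either side, in chromosome order, using the brightest probe set of each gene. Error bars are SE of the limma fit. Adh7 stands at 2.36, and the next largest is Adh6b at 0.40.

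The other retinol dehydrogenase of the set differed little. Rdh10, the main enzyme of embryonic retinal synthesis, measured 462.7, 514.3 and 486.2 units in control and 476.8, 626.3 and 519.5 in caNrf2 skin on probe set 1426968_a_at. The groups overlapped, and caNrf2 array 2 was the highest array. The log2 difference was 0.14 ± 0.10 (SE), and on probe set 1460632_at it was 0.12 ± 0.08, again with overlap and with caNrf2 array 2 highest. Without caNrf2 array 2 the differences were 0.03 and 0.08, and without control array 1 they were 0.10 and 0.07. Without caNrf2 array 1 the first was 0.23.

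The 3 retinal dehydrogenases were uneven among the caNrf2 arrays. Aldh1a1 measured 40.46, 34.92 and 38.09 units in control and 51.95, 43.49 and 75.55 in caNrf2 skin. All caNrf2 arrays lay above the controls, and array 3 lay well above the other two. The log2 difference of 0.56 ± 0.16 (SE; 95% interval 0.19 to 0.92) was the largest of the set after Adh7, and it was 0.33 without caNrf2 array 3. Aldh1a1 was dim, at 5.24 in control skin against 6.34 for the median probe set. Aldh1a2, dimmer still, measured 17.97, 17.05 and 19.99 units in control and 19.3, 18.88 and 23.51 in caNrf2 skin. These values overlapped and differed by 0.16 ± 0.10 on the log2 scale, and by 0.06 without caNrf2 array 3.

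Aldh1a3 had 3 probe sets, all with a mean difference near 0 and all with the same order of the caNrf2 arrays. The brightest, 1448789_at, measured 220.0, 204.4 and 210.6 units in control and 282.0, 221.2 and 149.4 in caNrf2 skin. The control arrays were alike, while caNrf2 array 1 lay above them and caNrf2 array 3 below them. The log2 difference was -0.01 ± 0.18 (SE; 95% interval -0.40 to 0.39), and the range among caNrf2 arrays was 0.92, a range that 0.246% of all probe sets reached. Probe sets 1417642_at and 1427395_a_at differed by -0.01 and 0.01. Relative to the control mean, caNrf2 array 3 stood at -0.25 on both, and caNrf2 array 1 at 0.13 and 0.19.

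Markers of hair follicles and of the pigment cells within them were measured on the same arrays. The 7 hair follicle markers summed to between 40546 and 41174 units on the control arrays and to 43382, 42704 and 36908 on caNrf2 arrays 1 to 3, where they averaged -0.00, 0.08 and -0.07 relative to the control mean (log2). The 5 melanocyte markers averaged 0.10, -0.01 and -0.28 on the same arrays. Aldh1a3 was lowest on caNrf2 array 3, as were all 5 melanocyte markers but only 4 of the 7 hair follicle markers. Lhx2, Sox9 and Shh were lowest on caNrf2 array 1, and the summed hair follicle level rests mostly on the bright keratins. In all, 5 of 11 marker lists averaged lowest on caNrf2 array 3, the others being those of the sebaceous gland (-0.07, -0.01 and -0.19), endothelium (-0.05, -0.05 and -0.14) and the stomach and oesophagus epithelium (-0.02, -0.15 and -0.15). Their part in the Aldh1a3 values was not tested. The order of Adh1 over the caNrf2 arrays was that of 3 lists. These were the markers of skeletal muscle (-0.13, 0.06 and 0.14), macrophages (-0.09, 0.06 and 0.09) and dermal fibroblasts (-0.06, -0.03 and 0.03), and their part was not tested either. With 3 arrays few orders are possible, so lists can share an order or a lowest array by accident.

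Crabp2, which delivers retinoic acid to its receptors, measured 623.8, 605.3 and 647.9 units in control and 855.4, 911.6 and 777.6 in caNrf2 skin. The groups were well separated compared with the spread within each. The log2 difference was 0.44 ± 0.08 (SE) or 1.35-fold (95% interval 1.19 to 1.53), and it lay between 0.38 and 0.50 whichever array was left out. Cyp26b1, which hydroxylates retinoic acid for removal, measured 520.6, 612.0 and 583.4 units in control and 501.8, 632.6 and 643.7 in caNrf2 skin. The groups overlapped, with caNrf2 array 1 the lowest of all arrays, and differed by 0.05 ± 0.11 on the log2 scale (95% interval -0.19 to 0.28), with -0.02 to 0.16 when single arrays were left out.

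**Figure D3:**
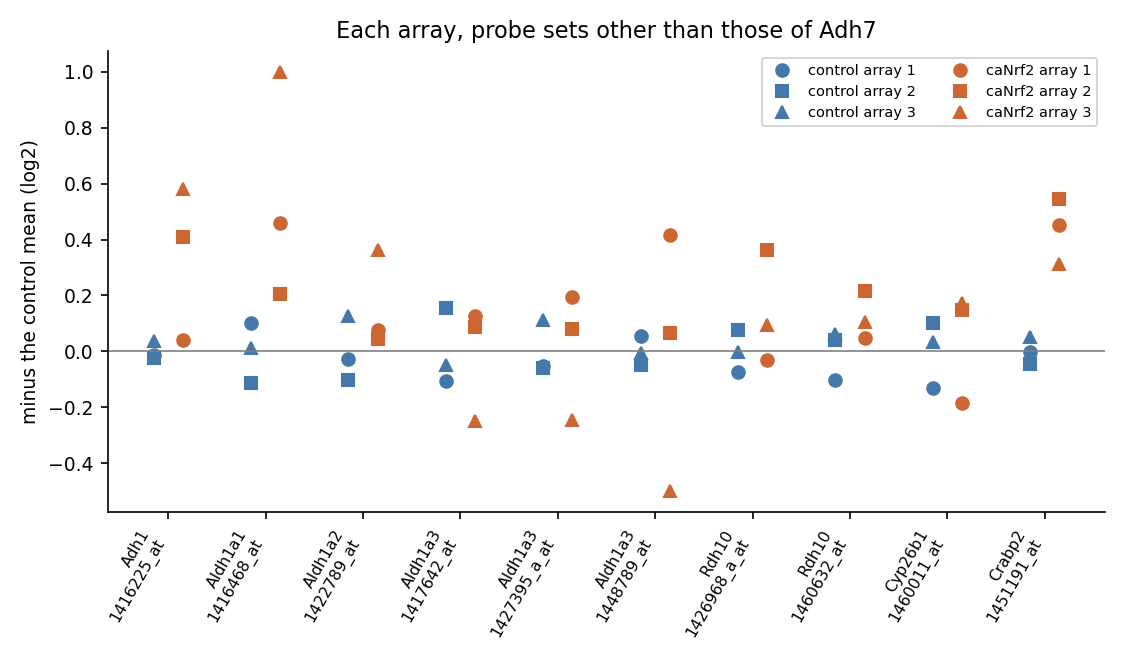
Each array's value minus the control mean (log2, vertical axis) for the 10 probe sets other than those of Adh7. Blue points are control arrays and orange points caNrf2 arrays, with a symbol for each array number. Only Adh1, Aldh1a1 and Crabp2 show no overlap, and caNrf2 array 3 is highest for Aldh1a1 and lowest for the 3 Aldh1a3 probe sets.

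Over the whole set, 10 of the 12 probe sets were higher in caNrf2 skin, with a median log2 difference of 0.15. The 10 probe sets other than those of Adh7 ran from -0.01 to 0.56, with a median of 0.13, and the median of all 45037 probe sets was -0.00. Only the 2 Adh7 probe sets passed the threshold over all probe sets, both higher, where 0.24% of all probe sets did (0.226% higher and 0.0133% lower). In 5 of 12, both of Adh7 among them, the groups did not overlap, a larger share than the 14.2% of all probe sets. Since the genes were proposed with this comparison known, nothing is read from these counts. RMA compresses differences close to background, which bears on Aldh1a1 and Aldh1a2.

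**Figure D4:**
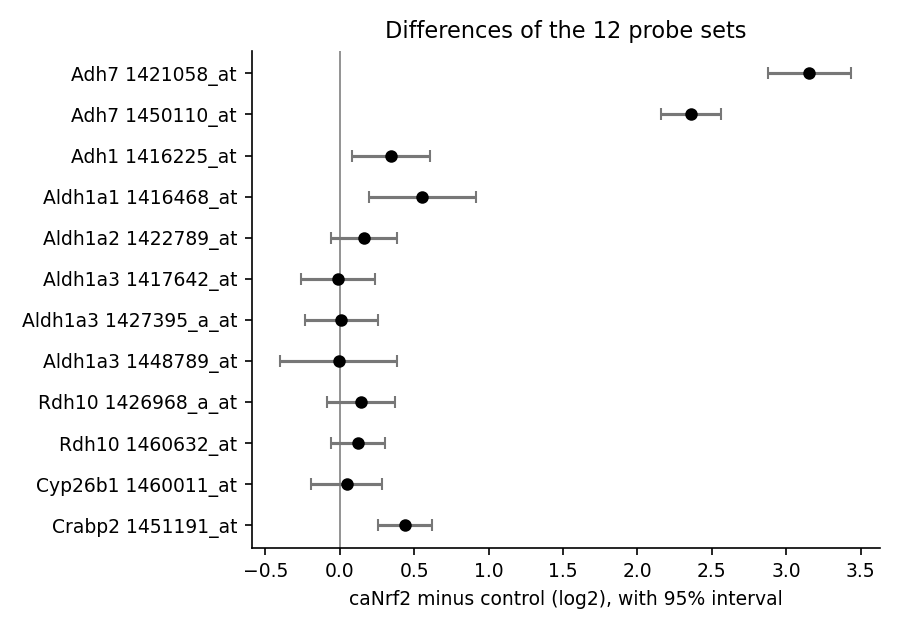
Difference between caNrf2 and control skin (log2, horizontal axis) for the 12 probe sets, with 95% intervals of the limma fit. Both Adh7 probe sets lie above 2, and the other 10 lie between -0.01 and 0.56.

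The rest of the retinoid pathway was followed in 10 lists of other genes, grouped by role. Of their 61 genes, 52 had a named probe set, with 91 probe sets in all. Only Ppard was called, and it was higher (limma, adjusted p under 0.05), where 0.24% of all probe sets were called. At an unadjusted p under 0.05 there were 9 of 91 probe sets (9.89%), against 8.86% of all probe sets. The groups did not overlap in 13.2% of the 91, against 14.2% of all. The median log2 difference was 0.00, with 46 probe sets higher and 45 lower. For genes with several probe sets, the value below is that of the probe set with the smallest p unless others are given.

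Ppard encodes a nuclear receptor for fatty acids that pairs with retinoid X receptors and is active in keratinocytes. On probe set 1439797_at it measured 8.38, 8.32 and 8.34 (log2) in control and 8.84, 9.07 and 8.90 in caNrf2 skin. The groups were well apart, and Ppard rose 1.51-fold (0.59 ± 0.08, SE; adjusted p = 0.0120, limma). The call was lost without control array 1, 2 or 3 (adjusted p = 0.0693, 0.0928 and 0.0779), and the dimmer probe set 1425703_at differed by -0.00 with overlap. With both probe sets averaged the difference was 0.29 (adjusted p = 0.299). No retinoic acid or retinoid X receptor gene among the 6 measured passed. After Ppard the smallest p values of this list belonged to the corepressor Nrip1 and the retinoid X receptors Rxrg and Rxrb. Nrip1 differed by -0.10 ± 0.07 on the dim probe set 1432603_at (adjusted p = 0.731) and by -0.02 to 0.10 on its other probe sets. Rxrg differed by -0.08 ± 0.08 (adjusted p = 0.826) and Rxrb by -0.06 ± 0.08 (adjusted p = 0.881).

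Of the 13 measured genes for other retinol dehydrogenases and retinal reductases none was called, with 3 of 18 probe sets at an unadjusted p under 0.05 and a median of 0.05. In those 3 (16.7% of the 18) the groups did not overlap, as in 14.2% of all probe sets. Sdr16c6, an epidermal retinol dehydrogenase of rodents, measured 10.04, 10.28 and 10.18 (log2) in control and 10.70, 10.40 and 10.52 in caNrf2 skin, a difference of 0.37 ± 0.10 (adjusted p = 0.316, limma). Its relative Sdr16c5 differed by 0.18 ± 0.08 (adjusted p = 0.553). Rdh12, which reduces retinal to retinol, differed by 0.20 ± 0.08 (adjusted p = 0.520).

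Among 2 other retinal dehydrogenases none was called, with 1 of 3 probe sets at an unadjusted p under 0.05. Aldh1a7, a rodent relative of Aldh1a1, measured 9.13, 8.56 and 9.30 in control and 9.31, 9.49 and 9.86 in caNrf2 skin (log2). The groups were barely separated, and control array 2 was far below the other controls. The difference of 0.56 ± 0.18 (adjusted p = 0.419) was as large as that of Aldh1a1, but it was 0.34 without control array 2, and array 3 was the highest caNrf2 array for both. The 2 genes are close relatives, so their probes may share transcripts, which was not tested. Aldh8a1 was dim and differed by -0.15 ± 0.15 (adjusted p = 0.817).

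Carriers and uptake genes showed no call among 9 measured genes, with 1 of 16 probe sets at an unadjusted p under 0.05 and a median of -0.02. Rbp2, a cellular retinol-binding protein, differed by 0.24 ± 0.09 (adjusted p = 0.504), the lipoprotein receptor Scarb1 by -0.15 ± 0.08 on probe set 1437378_x_at (adjusted p = 0.601; -0.03 and -0.05 on its other probe sets) and lipoprotein lipase, Lpl, by -0.15 ± 0.09 (adjusted p = 0.653). Transthyretin, Ttr, which carries the retinol-binding protein Rbp4 in blood, was chosen for mention with its values known. On 3 of its 4 probe sets it lay between 2.91 and 3.72 (log2) on 5 arrays, within the range of the Y-linked genes, and at 5.54, 4.55 and 4.80 on caNrf2 array 3. The remaining probe set lay between 6.48 and 6.73 on all arrays. Rbp4 itself differed by -0.18 ± 0.11 (adjusted p = 0.655).

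Genes of retinyl ester formation and hydrolysis held no call among 4 measured genes, with 1 of 8 probe sets at an unadjusted p under 0.05 and a median of -0.07. That probe set was a dim set of the lipase Pnpla2, at -0.24 ± 0.09 (adjusted p = 0.476). The acyltransferase Dgat1 differed by -0.16 ± 0.09 (adjusted p = 0.650) and the hormone-sensitive lipase, Lipe, by -0.14 ± 0.09 (adjusted p = 0.673). Among retinoic acid carriers none of 2 genes was called, with 1 of 3 probe sets at an unadjusted p under 0.05. Fabp5, the abundant fatty acid and retinoic acid carrier of keratinocytes, differed by 0.20 ± 0.08 on probe set 1416022_at (adjusted p = 0.504) and by 0.07 ± 0.07 on the brighter 1416021_a_at (adjusted p = 0.830), and Crabp1 by 0.08 ± 0.09 (adjusted p = 0.855). Neither carotenoid-cleaving enzyme was called or had an unadjusted p under 0.05, with Bco2 at 0.05 ± 0.08 and Bco1 at -0.03 ± 0.11.

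Genes that respond to retinoic acid, listed without members of the set such as Crabp2, showed no call among 12 measured genes. Of their 24 probe sets, 0 had an unadjusted p under 0.05, against 8.86% of all probe sets. Over these 24 the median was -0.01 and the differences ran from -0.19 to 0.17. Several of these probe sets were dim. All those of Krt13 lay between 3.21 and 3.87 (log2), within the range of the Y-linked genes. The probe sets of Krt4, Krt19 and Rarb lay below the level of the median probe set. RMA compresses differences close to background, which bears on such probe sets. Cyp26a1, the classical inducible enzyme of retinoic acid clearance, was dim at 5.04 in control and 4.98 in caNrf2 skin and differed by -0.06 ± 0.09 (SE; 95% interval -0.25 to 0.13; adjusted p = 0.890). Hbegf, a growth factor of keratinocytes, differed by 0.17 ± 0.09 on probe set 1418350_at (adjusted p = 0.618) and by -0.02 ± 0.08 on 1418349_at, the chemerin gene Rarres2 by -0.19 ± 0.11 on its dimmest probe set (adjusted p = 0.654) and Rarres1 by 0.12 ± 0.08 (adjusted p = 0.683). These genes respond to retinoic acid in some cells, and retinoids themselves were not measured.

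**Figure D5:**
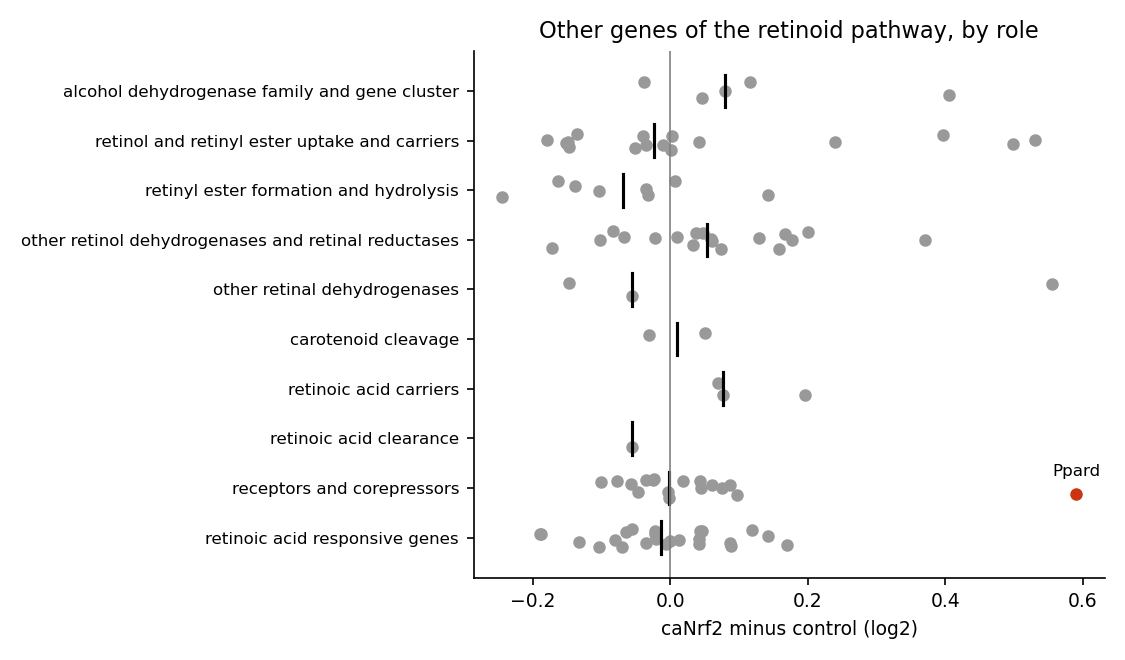
Difference between caNrf2 and control skin (log2, horizontal axis) for each of the 91 probe sets of the other retinoid pathway genes, by role; genes in more than 1 list appear in each. Black bars are list medians, and the red point is Ppard, the only called gene (0.59).

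The genes whose values over the 6 arrays were most like those of Adh7 were sought among probe sets of genes outside the set whose group means differ by at least 1 (log2). There were 29 such probe sets, and likeness was Pearson's r with probe set 1450110_at. The 8 highest were the glutathione peroxidase Gpx2 (r = 0.997), the glutathione transferase Gsta3 (0.996), Pir (0.996), the quinone reductase Nqo1 (0.996), Gsta4 (0.995), the carbonyl reductase Cbr3 (0.993), a dim probe set of the cystine transporter Slc7a11 (0.993) and Gstm1 (0.993). All 6 values of each pair come from the same arrays in 2 separate groups, so r mainly restates the shared group difference and is given as a description.

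Among known Nrf2 targets measured for reference, Nqo1 went from 5.92 ± 0.27 to 9.53 ± 0.15 (log2, mean ± SD, n = 3), a larger difference than that of either Adh7 probe set. Gsta4 rose by 2.09 ± 0.09 (adjusted p = 1.07e-06, limma), a smaller difference than those of Adh7, and Gclm, a subunit of the rate-limiting enzyme of glutathione synthesis, by 1.11 ± 0.10 (adjusted p = 0.000415). Nfe2l2, which encodes Nrf2, differed by 0.41 ± 0.08 without overlap (adjusted p = 0.0812), and a match of its probes to caNrf2 was not examined.

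Skin markers were bright, as the tissue label requires. All 6 basal keratinocyte, 6 suprabasal keratinocyte and 6 dermal fibroblast markers measured reached the level of the median probe set. Of 60 measured markers in 11 cell type lists none was called (limma), and 3 had an unadjusted p under 0.05. Over all probe sets 0.24% were called and 8.86% had such a p, so nothing is read from these counts. List medians ran from -0.14 for the sebaceous gland to 0.05 for basal keratinocytes. Because Adh7 is also known from stomach and oesophagus, 6 markers of those epithelia were measured. They summed to 738 to 773 units on the control arrays and to 721, 617 and 648 on the caNrf2 arrays. Most of that sum came from Tff1, the only 1 of them to reach the median level, and their part in the Adh7 values was not tested.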

How the data were processed

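Total RNA from back skin was labelled from 2 µg per mouse and hybridised to Affymetrix arrays, per the labels' protocols. The values the authors deposited are linear intensities of whole probe sets, made with RMA per the submitters' processing notes (version not given in the sources). RMA brings arrays close to a common distribution, which hides any change common to most genes. Columns of other series numbered 0.

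Intensities were converted to log2. The table held 45101 probe sets, of which 64 were Affymetrix controls and were dropped; 34945 of the remaining 45037 carried 1 gene symbol, 932 several and 9160 none, and 0 symbols were changed by the RefSeq gene table (GRCm38.p6). Groups (3 arrays each, separate animals) were compared over all probe sets by lmFit and eBayes of limma 3.58.1 (R 4.3.3) without a block, and p-values were adjusted by Benjamini-Hochberg (threshold 0.05). The number of arrays limits the precision. The fit was tested on simulated data.

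Members and gene lists were chosen with earlier results of these data known. Named were all members, every called gene and up to 3 genes of smallest p in each pathway list, the 5 measured genes on either side of Adh7, the 8 genes most like Adh7, and Nqo1, Gclm, Gsta4, Nfe2l2 and Y-linked genes. Marker genes used their brightest probe set. Motifs were searched on both strands. Alternatives were a replicate block, other normalisations, filters, probe set summaries, variance priors, array weights, pseudocounts of 1 and 16 units, and leaving out each array.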

Additional observations from a re-analysis of the deposited data

How the results depend on the processing

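In the fit over all probe sets 102 were higher and 6 lower in caNrf2 skin. Leaving out 1 array gave 61 to 111 higher and 1 to 25 lower, the 25 without caNrf2 array 1. With 1 probe set per gene 63 were higher, and with probe sets averaged by gene 60 were higher and 3 lower, where fewer features are tested. The number lower was 14 with an intensity trend, 15 with array weights and 2 with 16 units added; the cause was not tested. Adh7 passed the threshold in every fit. It was the only member to do so except with the intensity trend and the filter at the median level. There the number was 2 with Crabp2. Since Adh7 was known to be increased when the set was proposed, nothing is read from its calls. Of the other pathway genes 1 passed, Ppard. The number was 2, Ppard and Adh6b, with the filter, the intensity trend, array weights and 16 units added, and 0 to 1 when an array was left out, 0 without any 1 control array. With the mean of all probe sets Adh6b passed and Ppard did not. Fits with 1 array fewer have fewer samples. Adh4 turned to -0.000898 with array weights and, when single arrays were left out, ran from -0.0141 to 0.231, Bco2 from -0.0190 to 0.101 and Bco1 from -0.135 to 0.0866; none passed the threshold. Among members, Cyp26b1 (-0.0207 to 0.161) and the 3 Aldh1a3 probe sets (-0.0805 to 0.107, -0.0833 to 0.137 and -0.219 to 0.239) also changed sign when single arrays were left out. Of the values of member probe sets under the alternatives, 204 moved by less than 1 SD and 2 by more. Those 2 were of Adh7, 2.76 with probe sets averaged and 2.84 with 16 units added. The replicate block, the variance priors and the filters cannot change a difference, so these counts do not measure stability. The labels number arrays 1 to 3 in both groups. Deviations of same-numbered arrays correlated at -0.15, -0.04 and 0.04, and those of other pairs at -0.13 to 0.16. With 3 arrays per group these values cannot show whether the numbers pair the mice. With the replicate block 91 probe sets were higher and 6 lower, and Adh7 and Ppard passed the threshold.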
